A study of Mus musculus with 12 samples.

Results

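Chemokines are small secreted proteins that direct the movement of cells, and fibroblasts are one of their sources in the heart. Those of the CC class, such as Ccl2, mainly attract monocytes and lymphocytes, while the CXC class includes neutrophil attractants such as Cxcl1 and the homing factor Cxcl12. Cxcl12 acts on the receptor Cxcr4, which retains stem cells and leukocytes in tissues, and Ackr3 is an atypical receptor that binds Cxcl12 and removes it. The genes described here are 8 chemokines (Cxcl1, Cxcl5, Cxcl12, Cxcl14, Cxcl16, Ccl2, Ccl7 and Ccl17) and the receptor Ackr3, taken by gene symbol, which is 9 of the 19938 genes tested. Each of the 9 was read by 1 probe set that carried no other symbol.

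Expression was measured on 12 arrays, 3 in each of 4 groups, in mouse cCFU-F, colony-forming fibroblasts of the heart that were sorted as SCA1+PDGFRα+CD31- and then cultured in bulk. PDGF-AB, a growth factor that activates PDGF receptors, was given to one group at 50 ng/ml. AG1296, which inhibits the tyrosine kinase of those receptors, was given to 2 groups, at 1 uM and at 10 uM, and the last group was left untreated. All cells were primary cultures from male C57BL/6 mice aged 12 weeks, and no group carried a genetic change. The duration of treatment, any vehicle, and whether arrays came from separate mice or cultures could not be read from the labels, so a vehicle effect and an inhibitor effect cannot be told apart and p-values measure the spread between arrays, which may be technical. No group combined the ligand with the inhibitor. Values are log2 expression, so a difference of 1 is a 2-fold change, and levels of different genes are not compared because probe sets differ in brightness.

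The array medians lay between 4.02 and 4.13. The 8 fibroblast markers (among them Col1a1, Dcn and Pdgfra) all averaged above the lowest array median in every group. Of 11 measured leukocyte markers 9 lay below it in every group, including Ptprc, the pan-leukocyte antigen CD45, at 2.94 with PDGF-AB, 2.79 and 2.76 at 1 uM and 10 uM and 2.95 in untreated cells; the exceptions were Lyz2 and Cd68. PDGF-AB replicate 1 correlated least with the arrays of other groups, at a mean r of 0.990 across genes.

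Cxcl12 was the member with the widest differences, and its level separated all 4 groups. It was highest with PDGF-AB, next in untreated cells, lower at AG1296 10 uM and lowest at AG1296 1 uM. Each neighbouring pair in that order passed in the fit of all 12 arrays. None passed with only its own 6 arrays fitted (limma, adjusted p = 0.143, 0.0573 and 0.0782 in that order), and each failed in some refits without 1 array. Ccl17, which attracts T cells that carry the receptor Ccr4, was high at AG1296 1 uM alone among the 4 groups, and was lower at 10 uM and with PDGF-AB than at 1 uM. Ccl7, a monocyte attractant, was lower with PDGF-AB than with AG1296 10 uM. The other 6 members (Cxcl1, Cxcl5, Cxcl14, Cxcl16, Ackr3 and Ccl2) passed in none of the 6 comparisons. By an F test across all groups, 3 of 9 members differed: Cxcl12 (limma, adjusted p = 5.24e-07), Ccl17 (2.13e-05) and Ccl7 (0.0098). Of all genes, 5.00% did. The members were chosen with earlier results of these data known, so such shares are given for scale and do not test the set.

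**Figure D1:**
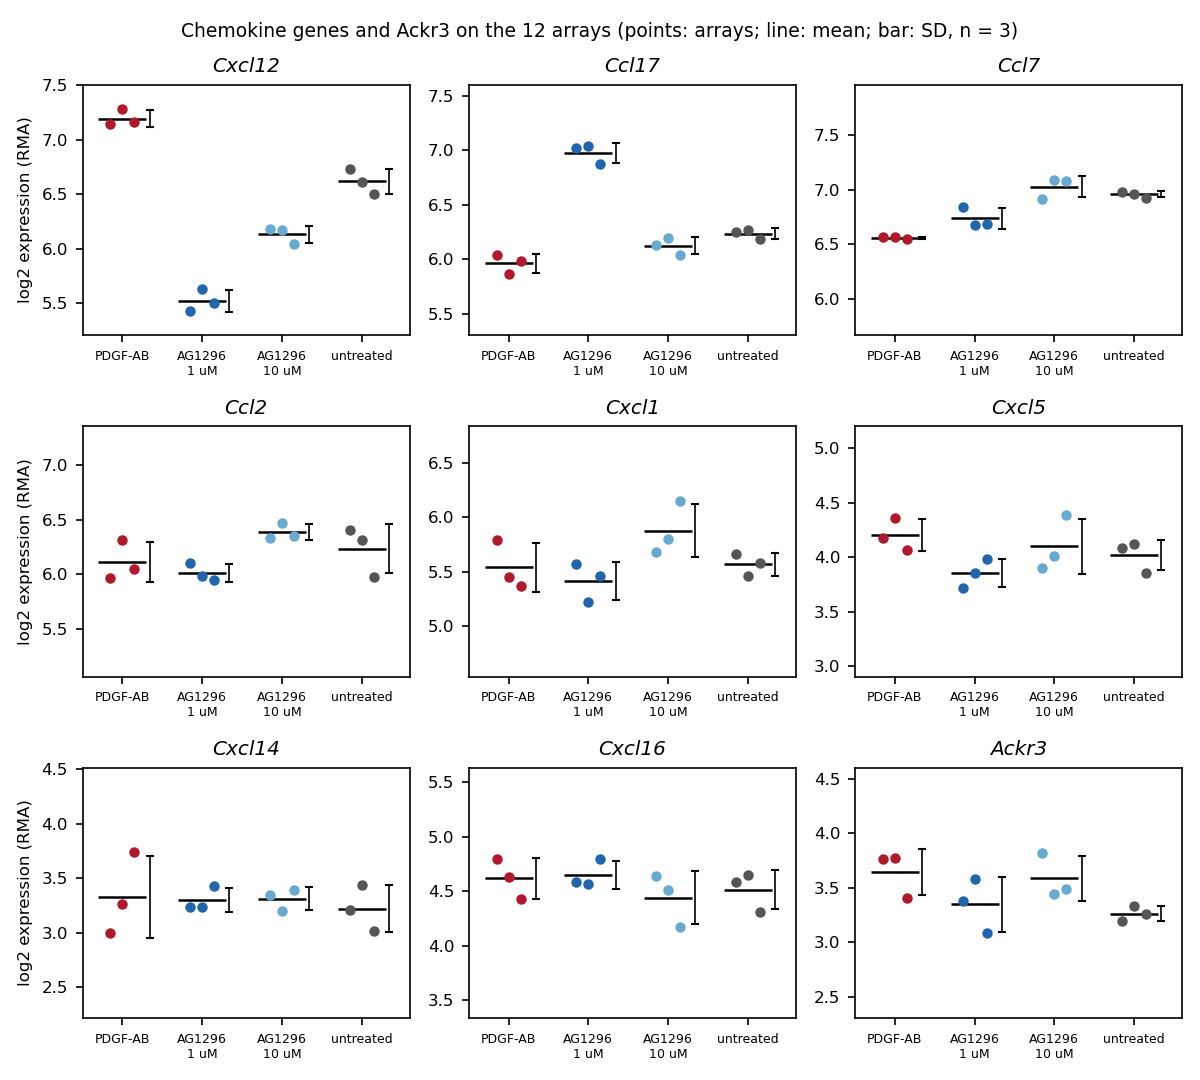
Log2 expression (RMA, vertical axes, each spanning the same width) of the 9 genes in the 4 groups; points are arrays, lines are means and bars are SD (n = 3). Cxcl12 lies between 7.14 and 7.28 with PDGF-AB, from 5.43 to 5.63 at AG1296 1 uM, 6.04 to 6.18 at 10 uM and 6.50 to 6.73 in untreated cells, with no overlap, while Ccl17 stands above all other groups at AG1296 1 uM.

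The sequence before the start of Cxcl12, of Ccl17 and, as a chemokine that did not pass, of Cxcl1 is shown to set the promoters of these 3 genes side by side. They are the 250 bases upstream of an annotated start in RefSeq (GRCm38.p6), which holds 5 of the 9 members in its promoter table (these 3, Cxcl14 and Ackr3). They lie at chr6:117168285-117168534 for Cxcl12, chr8:94810203-94810452 for Ccl17 and chr5:90890995-90891244 for Cxcl1, all on the + strand, and are written 5′ to 3′ with matches to any of 7 searched motifs in capitals.
Cxcl12: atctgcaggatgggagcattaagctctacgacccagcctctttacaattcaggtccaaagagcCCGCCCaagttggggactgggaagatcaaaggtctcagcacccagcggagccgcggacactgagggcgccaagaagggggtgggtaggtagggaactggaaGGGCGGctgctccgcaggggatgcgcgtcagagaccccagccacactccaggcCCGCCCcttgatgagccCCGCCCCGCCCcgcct
Ccl17: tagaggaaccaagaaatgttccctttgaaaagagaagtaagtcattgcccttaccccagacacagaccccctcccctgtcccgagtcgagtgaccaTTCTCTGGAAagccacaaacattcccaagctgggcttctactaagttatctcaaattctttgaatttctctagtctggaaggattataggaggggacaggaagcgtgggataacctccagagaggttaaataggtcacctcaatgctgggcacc
Cxcl1: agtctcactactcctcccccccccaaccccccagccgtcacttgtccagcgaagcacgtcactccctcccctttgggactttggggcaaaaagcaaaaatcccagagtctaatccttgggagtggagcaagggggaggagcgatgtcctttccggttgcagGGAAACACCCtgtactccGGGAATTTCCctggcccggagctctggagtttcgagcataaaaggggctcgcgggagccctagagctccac
Both strands were searched for an NF-kB motif (GGG and TTTCC with 2 free bases between them), AP-1 (TGANTCA), STAT (TTC and GAA with 4 free bases between them), ETS (CCGGAAG), FOXO (TGTTTAC), the GC box (GGGCGG) and the TATA box (TATAAA). Cxcl12 held 5 GC boxes, 2 of which share a base, and no other of these motifs. Ccl17 held 1 STAT match, 154 to 145 bases before the start, a motif found in 5.85% of the 32851 promoters searched in the same way. Cxcl1 held 2 NF-kB matches, 89 to 80 and 71 to 62 bases before the start, and 1.41% of promoters held any. The GC box was found in 32.7% of promoters. The upstream sequence was 64.4% G and C in Cxcl12, 47.6% in Ccl17 and 59.2% in Cxcl1, and 81.6%, 32.4% and 70.1% of promoters had a lower share. A match is a run of letters and shows no binding.

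Cells given PDGF-AB were first set against untreated ones. Of the 9 members 1 rose and 0 fell (limma, adjusted p under 0.05), against 0.331% of all genes called (0.120% higher and 0.211% lower). Cxcl12 was at 7.14, 7.28 and 7.16 with PDGF-AB and at 6.73, 6.62 and 6.50 in untreated cells. All 3 treated arrays lay above all 3 untreated ones, and the difference was 0.58 ± 0.09 (log2 fold change ± SE, n = 3), or 1.49-fold (adjusted p = 0.0158). It no longer passed when PDGF-AB replicate 2, PDGF-AB replicate 3, untreated replicate 2 and untreated replicate 3 were left out in turn (adjusted p = 0.0748, 0.0522, 0.0854 and 0.0962), with arrays centred on their medians (0.0521) and with only these 6 arrays fitted (0.143), while the log2 fold change stayed between 0.52 and 0.63. Among members 4 had groups that did not overlap, where 13.3% of all genes did. Besides Cxcl12 these were Ackr3, higher on every PDGF-AB array, and Ccl7 and Ccl17, lower on every one.

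Ccl7 had the smallest spread with the ligand of any member in any group. It was at 6.56, 6.57 and 6.54 with PDGF-AB and at 6.98, 6.96 and 6.93 in untreated cells, a log2 fold change of -0.40 ± 0.08 that did not pass (limma, adjusted p = 0.0733). It did pass where dim genes were left out (adjusted p = 0.0140) and with an intensity trend and robust moderation (0.0143). Ccl17 stood at -0.27 ± 0.09 (adjusted p = 0.347) and Ackr3 at 0.38 ± 0.14 (adjusted p = 0.441).

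AG1296 was given in the absence of added PDGF-AB, and each dose was set against untreated cells; both doses share their untreated arrays with each other and with PDGF-AB. At 1 uM 1 member rose and 1 fell, against 3.20% of all genes called (1.88% higher and 1.33% lower). Cxcl12 was at 5.43, 5.63 and 5.50 at 1 uM and at 6.73, 6.62 and 6.50 in untreated cells, so that even the highest treated array lay well below the lowest untreated one. The log2 fold change was -1.10 ± 0.09 (adjusted p = 9.5e-06), the level in untreated cells being 2.14-fold that at 1 uM. Ccl17 went the other way: its 1 uM arrays were at 7.02, 7.04 and 6.87 and its untreated arrays at 6.25, 6.27 and 6.18. It rose by 0.74 ± 0.09, or 1.67-fold (adjusted p = 0.000197), on all 3 arrays. Both calls held without any 1 array and under all 8 other settings. Ccl7 was also lower on every 1 uM array than on every untreated one, at 6.84, 6.68 and 6.69 against 6.98, 6.96 and 6.93, but its change of -0.22 did not pass (adjusted p = 0.237). Groups did not overlap for these 3 of the 9 members, and for 20.3% of all genes.

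At 10 uM 0 members rose and 1, Cxcl12, fell, against 1.88% of all genes called (1.21% higher and 0.672% lower). Its 10 uM arrays were at 6.18, 6.17 and 6.04, below every untreated array (6.73, 6.62 and 6.50), and the log2 fold change was -0.49 ± 0.09 (limma, adjusted p = 0.0136). It no longer passed when AG1296 10 uM replicate 3, untreated replicate 1 and untreated replicate 2 were left out in turn (adjusted p = 0.0598, 0.0728 and 0.0538) and with only the 6 arrays compared (0.0573), the log2 fold change staying between -0.54 and -0.43. Ccl17 was at 6.13, 6.20 and 6.04 against 6.25, 6.27 and 6.18 in untreated cells, groups that overlapped, and its log2 fold change of -0.11 had a 95% interval from -0.30 to 0.07. Cxcl1, a neutrophil attractant, was at 5.68, 5.80 and 6.15 at 10 uM against 5.66, 5.46 and 5.58, a difference of 0.31 ± 0.14 that did not pass (adjusted p = 0.427). Cxcl12, Cxcl1 and Ackr3 were the 3 members without overlap, where 18.0% of all genes had none.

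**Figure D2:**
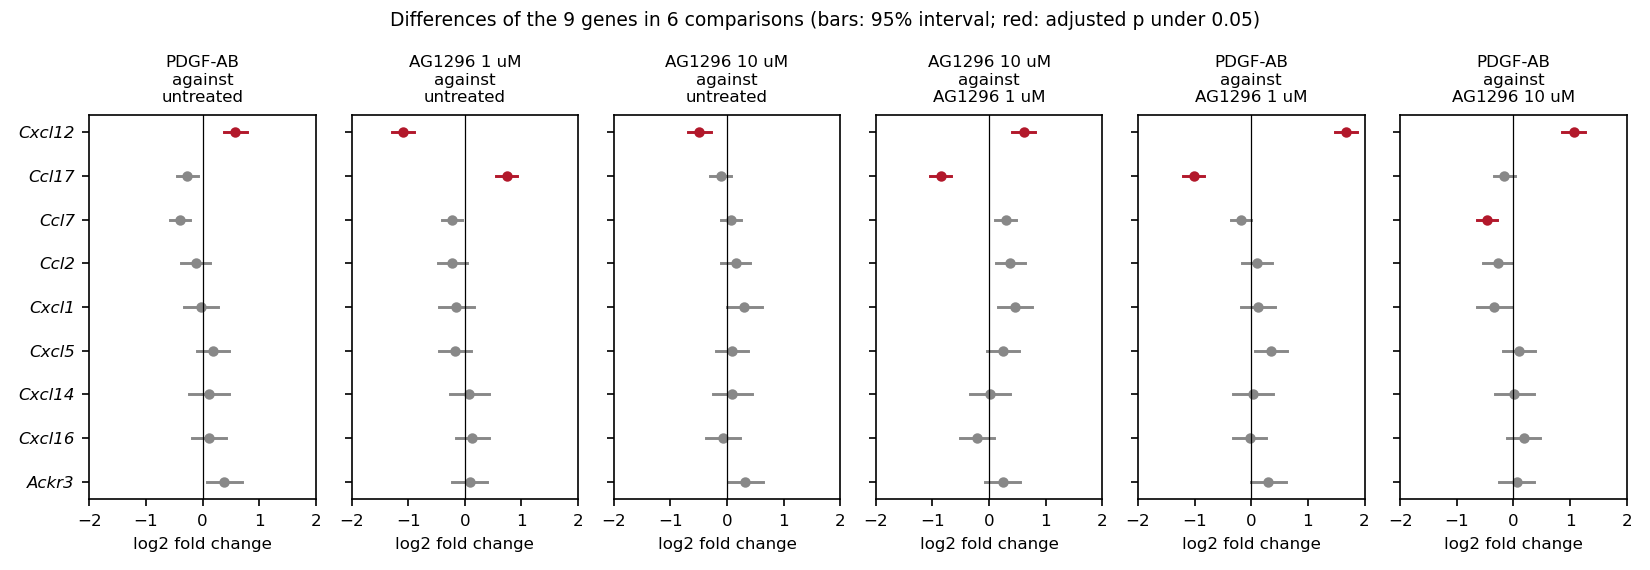
Log2 fold changes (horizontal axes) of the 9 genes in the 6 comparisons, first group over second, with 95% intervals from limma; red marks an adjusted p under 0.05. Cxcl12 is red in all 6 panels, Ccl17 in the 3 that involve AG1296 1 uM, and Ccl7 in PDGF-AB against AG1296 10 uM.

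The 2 doses of the inhibitor were compared directly. With 10 uM against 1 uM, 1 member was higher and 1 lower, against 0.376% of all genes called (0.196% higher and 0.181% lower). Ccl17 was at 6.13, 6.20 and 6.04 at 10 uM and at 7.02, 7.04 and 6.87 at 1 uM, a log2 fold change of -0.85 ± 0.09 (adjusted p = 0.000553), and by its p it ranked 6 among the 19938 genes. Cxcl12 was higher at 10 uM by 0.61 ± 0.09, or 1.53-fold (adjusted p = 0.0128), so its fall against untreated cells was larger at the lower dose. The difference no longer passed when AG1296 10 uM replicates 1 and 2 and AG1296 1 uM replicates 1 and 3 were left out in turn (adjusted p = 0.0679, 0.0551, 0.0763 and 0.0593) and with only the 6 arrays (0.0782). Cxcl1, Ccl2 and Ccl7 were higher on every 10 uM array than on every 1 uM array, by 0.46, 0.37 and 0.29, but did not pass (adjusted p = 0.278, 0.308 and 0.237). In all 5 members had no overlap, where 15.9% of all genes had none.

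Ligand and inhibitor were then set against each other. PDGF-AB against AG1296 1 uM gave the widest difference of any member: Cxcl12 was higher by 1.67 ± 0.09, or 3.19-fold (limma, adjusted p = 1.03e-07), and Ccl17 lower by a log2 fold change of -1.01 ± 0.09 (adjusted p = 5.59e-06). Of the 9 members 1 was thus higher and 1 lower, against 5.21% of all genes called (2.28% higher and 2.93% lower). In PDGF-AB against AG1296 10 uM, Cxcl12 was higher by 1.06 ± 0.09 (adjusted p = 1.28e-05) and Ccl7 lower, at -0.47 ± 0.08 on the same scale (adjusted p = 0.00473). Ccl7 was at 6.56, 6.57 and 6.54 with PDGF-AB and at 6.91, 7.08 and 7.08 at 10 uM. Those 2 calls, 1 higher and 1 lower, stand against 3.42% of all genes (284 genes, or 1.42%, higher and 398 lower). Lyz2, a gene of macrophages and other myeloid cells, was also lower with PDGF-AB, at 5.26 against 6.28 at 10 uM (log2 fold change -1.02, adjusted p = 0.00634) and 6.05 at 1 uM (-0.79, 0.0239). It was the 1 leukocyte marker of 11 called in these comparisons. A positive log2 fold change was seen for 8 of 11 in each (medians 0.15 against 1 uM and 0.10 against 10 uM). Of the 19938 genes, 11172 were positive against 1 uM and 10136 against 10 uM. In all 3 groups 9 of the 11 leukocyte markers were below the lowest array median, so the count rests mostly on dim genes. Besides Lyz2 only Cd68 lay above it, at 4.12 with PDGF-AB, 4.32 at 1 uM and 4.08 at 10 uM. The part of Lyz2 or of leukocytes in the Ccl7 and Ccl17 results was not tested. All 4 calls of members held without any 1 array and under the 8 other settings. Groups did not overlap for 4 of 9 members in each comparison, where 21.8% (1 uM) and 18.1% (10 uM) of all genes had none.

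Among the other CC chemokines, Ccl2, the main monocyte attractant and the gene next to Ccl7 on chromosome 11 in RefSeq, varied more between arrays of a group than Ccl7 did. It was at 5.97, 6.31 and 6.05 with PDGF-AB, 6.10, 5.98 and 5.95 at 1 uM, 6.33, 6.47 and 6.35 at 10 uM and 6.40, 6.31 and 5.98 in untreated cells. The pooled SD within groups was 0.15 for Ccl2 and 0.07 for Ccl7. Its 10 uM arrays lay above all PDGF-AB and all 1 uM arrays, while the untreated arrays spanned both; the smallest adjusted p in the 6 comparisons was 0.308.

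The 2 CXC chemokines that act on neutrophils through Cxcr2, Cxcl1 and Cxcl5, did not pass in any comparison (smallest adjusted p of 0.278 and 0.184). Cxcl1 had arrays from 5.23 to 6.15 and Cxcl5 from 3.72 to 4.39, and for both the highest array was AG1296 10 uM replicate 3. Cxcl5, made by epithelial and stromal cells in inflammation, lay below the median of its own array on 7 of 12 arrays. Over the 6 comparisons, the 95% intervals of the log2 fold changes reached from -0.64 to 0.76 for Cxcl1 and from -0.45 to 0.63 for Cxcl5.

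Cxcl16 is a membrane-bound chemokine for Cxcr6 that can be shed, and Cxcl14 is a chemokine made in many epithelia and by stromal fibroblasts. Group means of Cxcl16 differed by at most 0.21 and those of Cxcl14 by at most 0.11, with pooled SDs within groups of 0.19 and 0.23. The smallest adjusted p was 0.653 for Cxcl16 and 0.903 for Cxcl14, and their intervals stayed within -0.51 to 0.48 and -0.33 to 0.46. Cxcl14 lay below the array median on all 12 arrays.

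Ackr3, the scavenging receptor of Cxcl12, was likewise below the median on all 12 arrays. It was at 3.76, 3.78 and 3.40 with PDGF-AB, 3.38, 3.58 and 3.09 at 1 uM, 3.82, 3.45 and 3.49 at 10 uM and 3.20, 3.34 and 3.26 in untreated cells. Every PDGF-AB and every 10 uM array lay above every untreated array, and the 1 uM arrays spanned the untreated ones. The log2 fold changes were 0.38 with PDGF-AB (adjusted p = 0.441), 0.09 at 1 uM (0.892) and 0.32 at 10 uM (0.399). Its group mean was lowest in untreated cells, unlike that of Cxcl12. No difference passed (limma, smallest adjusted p = 0.312), so the order of its groups is not settled.

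Other parts of the chemokine system passed in no comparison. Of 30 other chemokine ligands 28 were measured, and 0 of their 168 tests over the 6 comparisons passed (limma, 17 with an unadjusted p under 0.05). Their log2 fold changes lay between -0.38 and 0.42. Most were dim: 23 of the 28 averaged below the lowest array median at 10 uM and 22 in each other group. For such genes a small change may not show. Close relatives of the members were among the dim ones: Cxcl2 stood at 0.42 with PDGF-AB against untreated (limma, adjusted p = 0.346) and Ccl12, Ccl8 and Ccl11 at 0.01, 0.08 and -0.03. For 21 chemokine receptors, 0 of 126 tests were called and 5 had an unadjusted p under 0.05. The receptors of the members were dim: Cxcr4 averaged 3.24 with PDGF-AB, 3.36 and 3.34 at 1 uM and 10 uM and 3.35 in untreated cells, and Cxcr2 and Ccr2 lay below 2 in every group. All but 1 of the 21 receptors averaged below the lowest array median in each group. The median log2 fold change of the other ligands against untreated was 0.02 with PDGF-AB, -0.03 at 1 uM and -0.02 at 10 uM, against 0.01, -0.01 and 0.01 over all genes, and that of the 9 members was 0.11, -0.15 and 0.08.

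NF-kB is the transcription factor that drives many inflammatory chemokines, and 2 of its genes passed against untreated cells. Of 14 measured genes of the pathway and its feedback 0 were called with PDGF-AB against untreated (0 with an unadjusted p under 0.05). Against untreated, 2 fell and 0 rose at 1 uM, and 1 fell and 0 rose at 10 uM. Of all genes, 0.331% were called with PDGF-AB, 1.33% fell and 1.88% rose at 1 uM, and 0.672% fell and 1.21% rose at 10 uM. With PDGF-AB against 1 uM, 1 of the 14 was higher and 0 lower, where 2.28% and 2.93% of all genes were. Tnfaip3, a feedback inhibitor of NF-kB, fell by 0.72 ± 0.10 at 1 uM (limma, adjusted p = 0.00119), and Ikbkg, a subunit of the kinase that activates it, fell by 0.32 at 1 uM (0.0361) and by 0.36 at 10 uM (0.0254). Nfkbia, the inhibitor that NF-kB itself induces, stood at -0.06, -0.06 and -0.04 with PDGF-AB, 1 uM and 10 uM. Of 16 cytokines and adhesion molecules 0 were called with PDGF-AB (2 with an unadjusted p under 0.05). At 1 uM Icam1, which binds leukocyte integrins, rose by 0.95 ± 0.11 (adjusted p = 0.000191) and Vcam1 fell by 0.35 (0.0353). At 10 uM Icam1 rose by 0.66 (0.0055). Lif, a cytokine of the IL-6 family, was lower with PDGF-AB than at 1 uM (-0.68, 0.00132), and Ptx3, a secreted pattern-recognition protein, was higher with PDGF-AB than at 1 uM (0.48, 0.0194) and at 10 uM (0.52, 0.0158). Il6, a cytokine often induced with Ccl2 and Cxcl1, stood at -0.08 with PDGF-AB, 0.16 at 1 uM and -0.22 at 10 uM.

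**Figure D3:**
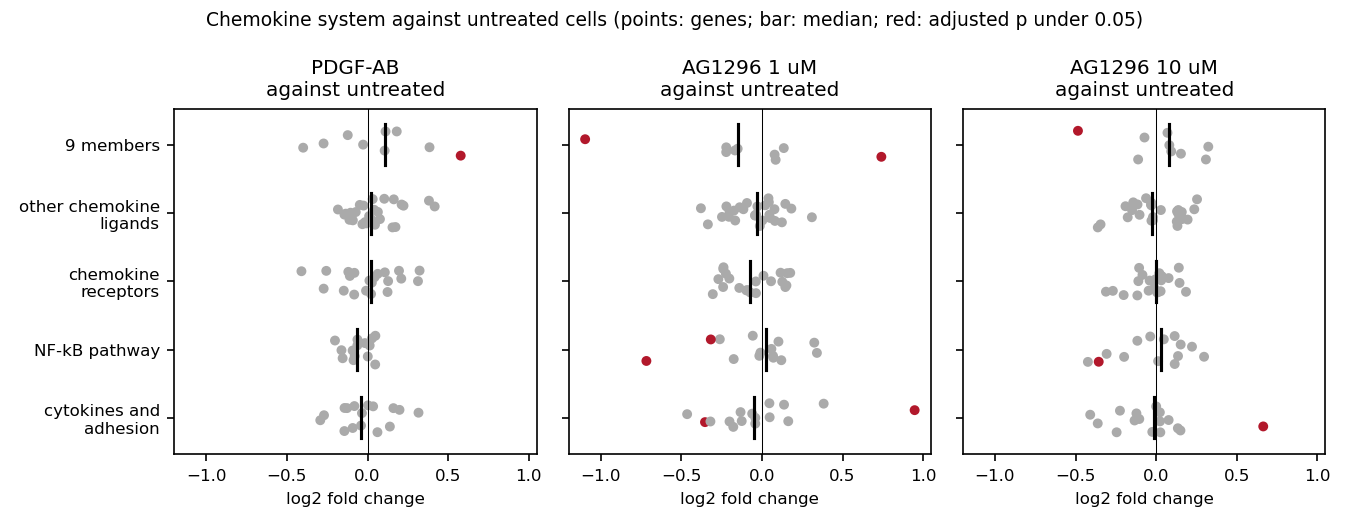
Log2 fold changes against untreated cells (horizontal axes) of the 9 members and 4 groups of related genes, 1 point per gene, with the median as a bar; red marks an adjusted p under 0.05. None of the 28 other ligands or 21 receptors is red, and among the members Cxcl12 is red in all 3 panels and Ccl17 at AG1296 1 uM.

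Proteases that process chemokines were the last group. Of 10 measured, 0 were called with PDGF-AB against untreated (1 with an unadjusted p under 0.05), where 0.331% of all genes were. Adam10, which sheds Cxcl16 from the membrane, was lower with PDGF-AB than at 1 uM (-0.41, limma adjusted p = 0.0110) and than at 10 uM (-0.40, 0.0174). Mmp2, which cleaves Cxcl12 and Ccl7, rose by 0.37 at 1 uM (0.0386), and Mmp14, its activator, rose by 0.39 at 10 uM (0.0232). Dpp4, which trims Cxcl12, lay at 2.74 with PDGF-AB and 3.13 at 1 uM, below every array median.

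Markers of other cell types were read in the same groups. Of all genes, 0.331% were called with PDGF-AB against untreated. At 1 uM 1.88% rose and 1.33% fell, and at 10 uM 1.21% rose and 0.672% fell. Of 6 pericyte markers, 0 were called with PDGF-AB against untreated, 1 fell at 1 uM and 1 fell at 10 uM, in both cases Mcam; 3, 1 and 3 had an unadjusted p under 0.05. With PDGF-AB those 3 were Notch3 and Cspg4, higher on every PDGF-AB array than on every untreated one by 0.53 and 0.72 (limma, adjusted p = 0.0620 and 0.111), and Mcam, lower on every one by a log2 fold change of -0.30 (0.323). The summed level of the 6 (log2) was 7.85 to 8.03 with PDGF-AB, 7.13 to 7.24 at 1 uM, 7.69 to 7.75 at 10 uM and 7.93 to 7.98 in untreated cells. That sum adds unlogged values, so Mcam, the brightest of them, weighed most. Mcam, an adhesion molecule of perivascular cells, averaged 7.06, 5.94, 6.77 and 7.36 in these 4 groups, with its highest mean in untreated cells, while Rgs5, a defining pericyte gene, lay between 2.55 and 2.65 in all of them. Notch3 and Cspg4 were higher with PDGF-AB than at 1 uM, by 0.54 and 0.66 (limma, adjusted p = 0.00788 and 0.0317). They averaged 5.49 and 3.61 at 1 uM, 5.84 and 3.92 at 10 uM and 5.50 and 3.55 in untreated cells. Neither was called lower at either dose against untreated. Cspg4 averaged below the lowest array median (4.02) at both doses and in untreated cells, and for such a gene a fall may not show. The summed level of 11 leukocyte markers was 7.04 to 7.22 with PDGF-AB and 7.15 to 7.33 in untreated cells. It was 7.28 to 7.50 at 1 uM and 7.35 to 7.53 at 10 uM. Unlogged values were summed, so Lyz2, the brightest of them, weighed most. Lyz2 averaged 5.26 with PDGF-AB, 6.05 at 1 uM, 6.28 at 10 uM and 5.61 in untreated cells. Of the 11 markers, 8 were higher with PDGF-AB than at 1 uM and 8 higher than at 10 uM. In every group 9 of the 11 lay below the lowest array median, and the sum does not describe the whole list. Against untreated, 0 were called at any treatment. Of 8 endothelial markers 1, Tek, rose at 1 uM (0.73), beside Ccl17, while Pecam1 stood between 2.98 and 3.11 in all groups. The sorted receptor Pdgfra fell by 0.91 at 1 uM and by 0.40 at 10 uM (adjusted p = 3.84e-05 and 0.0361). Of 7 mesothelial markers 0 were called with PDGF-AB, 1 rose and 2 fell at 1 uM and 1 fell at 10 uM, against untreated. Upk1b averaged 6.70 with PDGF-AB, 6.11 at 1 uM, 5.81 at 10 uM and 6.94 in untreated cells, Upk3b 5.42, 6.45, 6.19 and 5.90, and Krt19 5.68, 5.11, 5.35 and 5.83, so Upk3b was high at 1 uM with Ccl17 while Krt19 was low there with Cxcl12. Of 6 cardiomyocyte markers 0 were called against untreated, and Tnnt2 averaged 7.27, 6.89, 6.81 and 7.01 in the same order of groups. Of 8 fibroblast markers 0 were called with PDGF-AB, and 3 rose and 1 fell at each dose of AG1296. Dcn, a matrix proteoglycan, averaged 7.18 with PDGF-AB, 9.35 at 1 uM, 8.39 at 10 uM and 7.64 in untreated cells, an order of means opposite to that of Cxcl12, and Col1a1 and Col3a1 rose by 0.51 and 0.37 at 1 uM and by 0.53 and 0.54 at 10 uM. The part of any of these in the results was not tested, and in bulk RNA fewer cells of a type and less RNA per cell cannot be told apart.

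The genes whose pattern lay closest to each member that differed among groups were found by the root mean square difference of values centred on each gene's mean over the 12 arrays, among 17155 genes. For Cxcl12 they were Cap2, an actin-binding protein (0.14), Cyp1b1, a cytochrome P450 (0.18), and Sema3a, a secreted guidance protein (0.18), where the median gene was at 0.63. Cap2, Cyp1b1 and Sema3a stood at -0.94, -1.01 and -1.31 at 1 uM, at -0.48, -0.51 and -0.73 at 10 uM and at 0.46, 0.21 and 0.25 with PDGF-AB, all against untreated. For Ccl17 they were Vegfc, a growth factor of lymphatic vessels (0.12), the kinase Prkg1 and the engulfment adaptor Gulp1 (both 0.16), where the median gene was at 0.43. Vegfc, like Ccl17, rose at 1 uM (0.72 ± 0.08, limma adjusted p = 0.000143) and was lower at 10 uM than at 1 uM (-0.63, 0.00476). For Ccl7 they were Apaf1 (0.08), Pea15b (0.09) and Dpysl2 (0.10), against a median of 0.24. These genes were picked for their likeness, so their values describe the choice.

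**Figure D4:**
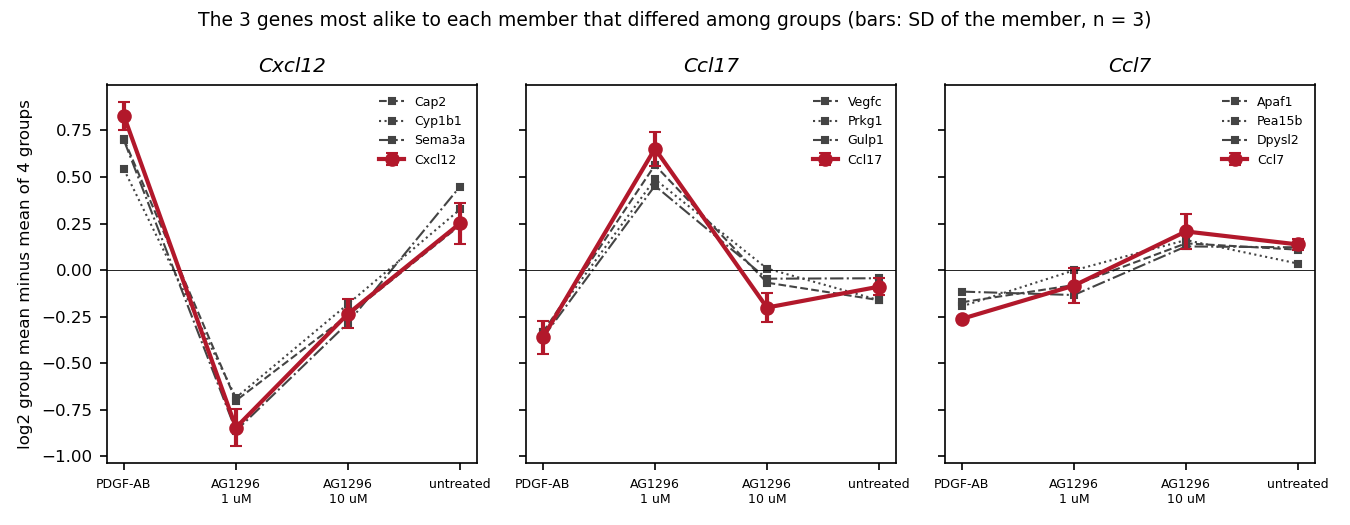
Group means (log2, vertical axis, minus the mean of the 4 group means) of Cxcl12, Ccl17 and Ccl7 in red with SD (n = 3), and of the 3 genes most alike to each in grey; lines join values of 1 gene and imply no order of groups. The genes near Cxcl12 share its low at AG1296 1 uM, and those near Ccl17 share its peak there.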

How the data were processed

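Total RNA was labelled with biotin and hybridised to 1-colour Affymetrix arrays. Each deposited value is the log2 expression of a probe set, which the authors made with RMA (background correction, normalization across arrays, summary per probe set) and analysed with limma, per the submitters' processing notes; no version, setting or genome build is given in those notes. The log base was read from the range of values. They were used as deposited, and no detection calls were used.

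Of 28853 probe sets, 21789 carried exactly 1 symbol in the platform annotation, 1621 several and 5443 none. For the 999 genes with several such probe sets the one with the highest mean was kept, giving 19938 genes. All 12 arrays entered 1 fit in limma 3.58.1 (R 4.3.3) with a mean per group and empirical Bayes moderation (8 residual and 5.35 prior degrees of freedom). All tests were two-sided. Calls rest on p-values below 0.05 after Benjamini-Hochberg adjustment across every gene in that comparison. With 3 arrays a group, the number of arrays limits precision. The fit was tested on simulated data.

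The members and all gene lists were chosen with earlier results of these data known. Of the lists' genes, Ccl21a and Ccl27a were left out because their probe sets carry several symbols, and Nfkb1 and Chuk had none under their symbol. The naming rule took all members, up to 4 genes per list with the smallest F-test p that passed, relatives and receptors of the members, Nfkbia, Il6, Pdgfra, Pecam1 and Ptprc whatever their p, and the 3 genes most alike to each member that differed. Of the relatives, Cxcl3, Cxcl9 and Cxcl10 are given only within their list. Dpp4, Rgs5 and Cd68 were named after their values were seen. Predicted genes, olfactory and vomeronasal genes and small RNAs were left out of the likeness search. Alternatives were a replicate block, only the 6 arrays compared, all probe sets, dim genes left out, the mean of a gene's probe sets, quantile normalization, median centring, an intensity trend with robust moderation, and each array left out. Promoter sequences are from RefSeq.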

Additional observations from a re-analysis of the deposited data

How the results depend on the processing

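The number of members called was the same under all 8 alternatives and without any 1 array for AG1296 1 uM against untreated (2), for PDGF-AB against AG1296 1 uM (2) and 10 uM (2), and for the F test (3; 7 alternatives). For PDGF-AB against untreated it was 1, and was 0 with only the 6 arrays or with median centring, 2 with dim genes left out or with a trend and robust moderation, and 0 to 1 without 1 array. For AG1296 10 uM against untreated it was 1, 0 with only the 6 arrays and 0 to 1 without 1 array. For 10 uM against 1 uM it was 2, 1 with only the 6 arrays and 1 to 2 without 1 array. Over all genes, with only the 6 arrays the calls were 7, 218, 14, 691 and 391, against 66, 375, 75, 1039 and 682 (PDGF-AB and 10 uM against untreated, 10 uM against 1 uM, PDGF-AB against 1 uM and 10 uM). With dim genes left out they were 133, 989, 660, 175 and 1032, and with the trend 160, 1010, 686, 209 and 1077, against 66, 639, 375, 75 and 682 (PDGF-AB, 1 uM and 10 uM against untreated, 10 uM against 1 uM, PDGF-AB against 10 uM); the F test gave 1518 and 1610 against 997. The causes were not tested. Without 1 array the counts over all genes ranged from 21 to 62 (PDGF-AB), 349 to 718 (1 uM) and 219 to 434 (10 uM) against untreated, 16 to 82 for 10 uM against 1 uM, and for PDGF-AB 696 to 1012 against 1 uM and 455 to 627 against 10 uM. Deviations from group means correlated at over 0.1 in 9 of 18 same-numbered pairs (mean r 0.112) and in 1 of 36 differently numbered pairs (mean r -0.0562), and 8 of 12 arrays correlated best with their own number. That is a hint from the data that numbers mark something shared, but not every pair reached 0.1 and the labels tie numbers to nothing, so the block was kept as an alternative. The replicate block cannot move a difference in this balanced design; with it the adjusted p of Cxcl12 was 0.0219 for PDGF-AB against untreated, and each count of members called was as before.

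Signs turned in 26 refits, all of differences that passed in no setting. Cxcl14 was at -0.026 (10 uM against 1 uM), -0.040 (PDGF-AB against 1 uM) and -0.014 (PDGF-AB against 10 uM) with quantile normalization, and at -0.0080 (10 uM against 1 uM) with median centring. Without 1 array, Cxcl14 ranged from -0.092 to 0.28, -0.025 to 0.19 and -0.011 to 0.20 (PDGF-AB, 1 uM and 10 uM against untreated), -0.026 to 0.078 (10 uM against 1 uM), and -0.17 to 0.20 and -0.18 to 0.19 (PDGF-AB against 1 uM and 10 uM). Cxcl1 ranged from -0.15 to 0.056 (PDGF-AB against untreated) and -0.0034 to 0.21 (against 1 uM), Ccl2 from -0.0044 to 0.17 (PDGF-AB against 1 uM), and Ackr3 from -0.0085 to 0.18 (PDGF-AB against 10 uM) and -0.031 to 0.22 (1 uM against untreated). Cxcl16 ranged from -0.12 to 0.066 (PDGF-AB against 1 uM) and -0.17 to 0.063 (10 uM against untreated), and Cxcl5 from -0.060 to 0.18 (10 uM against untreated). Cxcl5, Cxcl14 and Ackr3 gave no value where dim genes were left out. Cxcl14 and Ackr3 lay below the array median on all 12 arrays.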
